A study of Mus musculus with 4 samples.

Results

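The Frizzled receptors are a family of membrane proteins with the gene symbols Fzd1 to Fzd10. All 10 genes were taken by symbol out of 20719 genes listed in the deposited matrices. No measured value entered that rule, though earlier results of these data were known. They were followed through single-cell RNA sequencing of heads from mouse embryos at stage E10.5, in samples titled as embryonic brain. The study set 2 wild type (WT) libraries beside 2 libraries labelled Apcdd1+/-, from embryos with 1 altered copy of Apcdd1, which encodes a membrane glycoprotein known to inhibit Wnt signalling. No label names a treatment, a strain or a second allele, nor says how the Apcdd1 allele was altered, or whether libraries came from separate embryos or litters. The p-values between genotypes therefore measure the spread between these libraries, which may be technical. Those between groups of cells measure the spread left once differences between libraries are taken out, which may be technical too.

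A Frizzled crosses the membrane in the manner of other heptahelical receptors and binds secreted Wnt proteins through a cysteine-rich outer domain. With the co-receptors Lrp5 and Lrp6 it can lead to stabilised beta-catenin and transcription. With Celsr, Vangl and Prickle proteins it can instead orient cells within a sheet, which is called planar cell polarity. In the early neural tube Wnts are made along the dorsal midline, at the cortical hem and near the isthmus, the boundary of midbrain and hindbrain, and they guide regional identity, growth and axon paths.

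After filtering, 24259 of 25074 cells were kept, with 55393605 to 96822641 deposited UMIs (unique molecular identifiers, counted transcripts) and 2956 to 9501 kept cells per library. Median UMIs per kept cell ranged from 8934.5 to 17133.5, with WT replicate 2 the smallest and deepest library. Between 0.69% and 0.893% of a library's barcodes also occurred in another library. Cells were placed in 22 gates, each a cell type or brain region defined by UMIs of marker genes, among which there is no Frizzled. The gates took 13123 cells (54.1%), and a further 9352 neural progenitors met the marker rule of no region, some of which also exclude cells by a marker. Levels are given as CPM, the gene's UMIs per 1000000 UMIs of that gate in that library, first for WT replicates 1 and 2 and then for the libraries labelled Apcdd1+/- replicates 1 and 2. Apcdd1 itself stood at 63.4 and 60.8 CPM over all WT cells and at 77.4 and 49.5 CPM in the libraries labelled Apcdd1+/-. The latter lie on either side of WT (log2 difference 0.08, SE 0.23, adjusted p = 0.9996, edgeR quasi-likelihood test), so the label is not borne out by the RNA level, and no source used here says whether the altered stretch lies in the counted part of the transcript.

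Differences between gates were tested with edgeR's quasi-likelihood test on UMIs summed per gate and library, with a library term and Benjamini-Hochberg adjustment over all genes, and a call is an adjusted p under 0.05. Differences are given as log2 ± SE from the 4 libraries. SE and p rest on the spread left among all gate sums of a fit after the library term. They do not measure the spread of 4 library values. The 11 pairs of gates were chosen as neighbouring regions or successive steps of differentiation, with earlier results of these data known. In them 30 of 101 Frizzled tests were called, where 15.9% of all gene tests in those pairs were called. Over the 9 pairs of regions the Frizzled count was 16 of 81, with 7.52% of gene tests called. Each of 20 gates was also set against the mean of the others, and there 103 of 180 Frizzled contrasts (57.2%) were called against 28.3% of all gene contrasts. A fit of 18 gates that included erythroid cells called 81 Frizzled contrasts, against 30.1% of its gene contrasts. Fzd6 was too low for these 20-gate contrasts, and whether the shares differ was not tested.

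**Figure D1:**
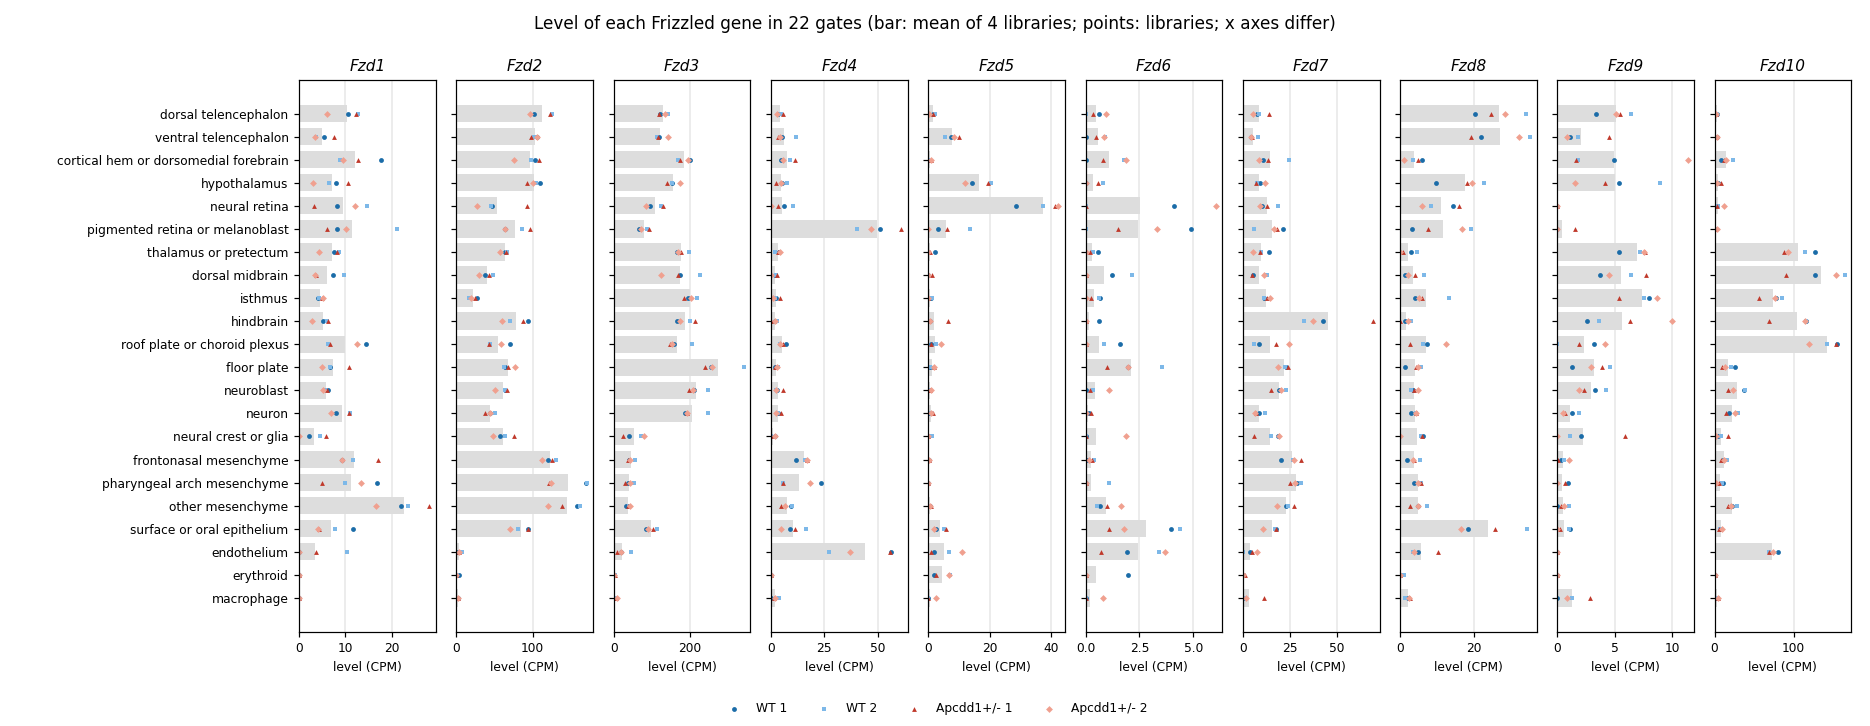
Level of each of the 10 Frizzled genes (x axis, CPM, with its own scale for each gene) in the 22 marker gates (y axis). Bars are means of 4 libraries and points are the libraries, and Fzd10 is high in the roof plate, dorsal midbrain, thalamus, hindbrain, isthmus and endothelium gates and low in the telencephalon.

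Fzd4 and Fzd5 were high in few gates, among them pigmented retina or melanoblast for Fzd4 and neural retina for Fzd5. Sequences just before their annotated starts are printed first, so that they can be read beside the values. Each is the 200 bases upstream of the gene start, from RefSeq on GRCm38.p6, 5′ to 3′ on the gene's own strand. Fzd4 lies on chromosome 7 and its stretch is chr7:89404155-89404354 on the plus strand. Fzd5 lies on chromosome 1 and its stretch is chr1:64737752-64737951 on the minus strand. Capitals mark the GC box (GGGCGG) and the CCAAT box (CCAAT), each on either strand.
Fzd4: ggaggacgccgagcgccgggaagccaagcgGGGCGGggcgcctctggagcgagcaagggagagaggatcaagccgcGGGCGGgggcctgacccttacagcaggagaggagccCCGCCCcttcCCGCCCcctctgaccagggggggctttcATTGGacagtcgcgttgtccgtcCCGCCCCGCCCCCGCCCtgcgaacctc
Fzd5: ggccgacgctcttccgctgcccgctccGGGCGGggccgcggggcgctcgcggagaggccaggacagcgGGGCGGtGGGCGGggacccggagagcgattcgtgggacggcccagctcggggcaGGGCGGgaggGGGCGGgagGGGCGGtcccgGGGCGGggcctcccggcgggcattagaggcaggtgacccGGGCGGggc
Fzd4 holds 7 GC boxes in this stretch, some of which overlap or adjoin, and 1 CCAAT box, and Fzd5 holds 8 GC boxes. Bases G and C make up 73.5% and 82% of the stretches. Among 32841 RefSeq windows, the 200 bases before the start hold a GC box in 31.1% and a CCAAT box in 29.4%. Longer windows, with 250 bases before and 50 after the start, were searched for other motifs on both strands. Windows for 6 of the 10 genes were matched (Fzd1, Fzd4, Fzd5, Fzd7, Fzd9 and Fzd10). The letters CTTTGAT, a core read by Tcf and Lef factors, occur in 3.73% of all windows and in none of these 6, and TAATTA, a homeobox core, in 5.29% of all windows and in none of the 6. The Fzd10 window and most of the Fzd9 window lie inside the genes as GENCODE annotates them, so these do not show the sequence before the annotated start. A match or its absence describes these letters alone.

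Fzd4 is the receptor of Norrin, a ligand outside the Wnt family that shapes retinal blood vessels. It was high in the pigmented retina or melanoblast gate and in endothelium, the lining of blood vessels. In the pigmented gate Fzd4 was measured at 50.8, 40.3, 61.0 and 46.8 CPM (mean 49.7 ± 8.7, SD, n = 4), from 106 UMIs in 54 of 146 cells, and gates read from thinned cells gave a mean of 84.0 CPM. Endothelium gave 56.4, 27.3, 55.8 and 36.9 CPM (44.1 ± 14.4), from 153 UMIs in 85 of 219 cells. The libraries of these gates overlap, and in mean order they stand above every other gate, the next being frontonasal mesenchyme at 15.4 ± 2.5 CPM, whose libraries lie entirely below both. Against the mean of the other gates the difference was 3.22 ± 0.25 in the pigmented gate (adjusted p = 1.07e-19, edgeR) and 3.36 ± 0.23 in endothelium (adjusted p = 3.09e-24, edgeR). The pigmented gate had 4 of 9 members called, with 18.7% of genes called, and endothelium 6 of 9, with 48.5%.

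Frontonasal mesenchyme also exceeded the mean of the other gates in Fzd4, by 1.65 ± 0.16 on the log2 scale. It had 7 of 9 members called and pharyngeal arch mesenchyme 6 of 9, beside 47.5% and 33.5% of genes. Pharyngeal arch mesenchyme, at 23.4, 5.6, 5.6 and 18.2 CPM, split its libraries without regard to genotype. Its Fzd4 call, at 1.35 ± 0.30, was lost without WT replicate 1, where edgeR's adjusted p was 0.0919. The low Fzd4 calls of dorsal midbrain and hindbrain, at 1.7 CPM each, were also lost without WT replicate 1 (adjusted p = 0.0541 and 0.141, edgeR), and that of hindbrain without the library labelled Apcdd1+/- replicate 2 (0.112). The dorsal midbrain call was also absent in the fit that included erythroid cells, at a log2 difference of −1.26.

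Fzd4 and Fzd5 went in opposite directions between the neural retina and the pigmented gate, in which pigmented retina and melanoblasts were not separated. Fzd5, a receptor known for its part in eye formation, read 28.6, 37.4, 41.3 and 42.3 CPM in the neural retina gate (37.4 ± 6.2, n = 4), from 59 UMIs in 41 of 100 cells. The next gates in order were hypothalamus at 14.3, 20.3, 19.4 and 12.03 CPM (16.5 ± 4.0) and ventral telencephalon at 7.4, 5.4, 10.1 and 8.5 CPM (7.9 ± 1.9). Libraries of these 3 gates do not overlap, so the order holds in every library. Dorsal telencephalon held 1.4 ± 0.8 CPM, and no UMI was found in pharyngeal arch mesenchyme, which allows up to 0.71 CPM over its summed libraries, counting error only.

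From neural retina to the pigmented gate, Fzd4 was higher by 3.13 ± 0.49 on the log2 scale (adjusted p = 1.53e-06, edgeR) and Fzd5 lower (−2.64 ± 0.52, adjusted p = 1.66e-04). These were 2 of 9 members tested, where 7.73% of all genes were called. From dorsal to ventral telencephalon Fzd5 rose by 2.48 ± 0.47 on the log2 scale (adjusted p = 5.52e-05, edgeR) and Fzd1 fell by 1.03 ± 0.31 on that scale (adjusted p = 0.0288), again 2 of 9 with 6.76% of genes called. The Fzd1 call was lost without WT replicate 1 (adjusted p = 0.104), without WT replicate 2 (0.170) and without the library labelled Apcdd1+/- replicate 2 (0.0727).

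Neural retina set against hypothalamus gave 4 calls among 9 members, with 9.58% of genes called. Fzd2 fell by 0.94 ± 0.19 on the log2 scale and Fzd3 by 0.48 ± 0.14, while Fzd5 rose by 1.18 ± 0.40 (adjusted p = 0.0417, edgeR). Without any 1 of the 4 libraries the Fzd5 call was lost, at adjusted p between 0.0700 and 0.194, although its log2 difference stayed between 1.01 and 1.31. Fzd3 lost its call without WT replicate 1 (0.123) and without the library labelled Apcdd1+/- replicate 2 (0.155). The fourth member, Fzd9, had no UMI in the retina gate, which allows up to 1.86 CPM over its summed libraries, against 5.0 ± 3.1 CPM in hypothalamus, and this call was lost without WT replicate 1 (0.0962) or WT replicate 2 (0.158). No member of 9 was called between hypothalamus and ventral telencephalon, where 5.72% of genes were. Fzd5 there differed by 1.00 ± 0.40 on the log2 scale (adjusted p = 0.149, edgeR).

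Fzd8, the nearest relative of Fzd5, was highest in the telencephalon, surface or oral epithelium and hypothalamus. Ventral telencephalon measured 21.8, 35.2, 19.1 and 32.3 CPM (27.1 ± 7.8) and dorsal telencephalon 20.2, 33.9, 24.6 and 28.5 CPM (26.8 ± 5.8). The surface or oral epithelium followed at 23.7 ± 8.1 and hypothalamus at 17.6 ± 5.5 CPM. Libraries of these 4 gates overlap, and the order within them is not beyond their spread. Neural retina held 11.1 ± 4.7 CPM, and thalamus or pretectum, also forebrain, 2.1 ± 2.1 CPM. At the cortical hem, the strip beside the dorsal telencephalon that secretes Wnts, Fzd8 dropped to 5.9, 3.5, 4.8 and 0.9 CPM, below every dorsal telencephalon library.

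The hem differed from the dorsal telencephalon in 3 of 9 members, where 7.45% of genes were called. Fzd8 fell by 2.78 ± 0.36 on the log2 scale (adjusted p = 2.53e-09, edgeR), Fzd10 rose by 2.20 ± 0.38 (adjusted p = 8.94e-06) and Fzd3 rose by 0.49 ± 0.09 (adjusted p = 3.76e-05). Among 14 Wnt and Norrin ligands tested, 6 were higher in the hem and none lower. Wnt3a (5.08 ± 0.65) and Wnt8b (4.37 ± 0.20) were among the markers that define the hem gate, whereas Wnt4 (4.12 ± 0.30), Wnt7b (1.66 ± 0.18) and Wnt9a (5.01 ± 0.42) were not. The pathway's feedback gene Axin2 was higher by 1.52 ± 0.22.

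Fzd10 was high in dorsal and posterior gates and low in the telencephalon. Known as a dorsal neural tube receptor, it measured 155, 143, 154 and 119.9 CPM in the roof plate or choroid plexus gate (143 ± 16) and 128, 165, 91.0 and 154 CPM in dorsal midbrain (135 ± 33). Thalamus or pretectum followed at 106 ± 19 CPM, hindbrain at 104 ± 23, isthmus at 74.0 ± 12.2 and endothelium at 72.8 ± 5.5. Neighbours in this order overlap. All 6 gates, however, lie clear of the rest in every library, as the seventh gate, neuroblasts (29.0 ± 10.52), reached at most 38.8 CPM. Reading gates from thinned cells moved the roof plate mean to 219 CPM.

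At the other end were dorsal telencephalon at 3.4, 3.6, 2.5 and 1.9 CPM and ventral telencephalon at 2.1 ± 0.6 CPM, where gates read from thinned cells gave 1.3 CPM. Fzd10 exceeded the mean of the other gates by 3.25 ± 0.13 in roof plate, 3.14 ± 0.12 in dorsal midbrain, 2.83 ± 0.10 in thalamus or pretectum, 2.82 ± 0.13 in hindbrain and 2.28 ± 0.12 in isthmus. Members called numbered 2, 6, 6, 6 and 6 of 9 in these gates, where 18.0%, 17.6%, 22.8%, 19.0% and 20.9% of genes were called. Fzd10 lay below that mean in dorsal telencephalon (−2.60 ± 0.35), ventral telencephalon (−3.07 ± 0.40), hypothalamus (−1.99 ± 0.35) and the pigmented gate (−4.29 ± 0.68). In the first 3 of these gates 7, 5 and 7 of 9 members were called, beside 32.5%, 17.1% and 15.7% of genes. These 4 low calls are absent (adjusted p = 1 each, edgeR) when the erythroid gate, with no Fzd10 UMI, is part of the mean.

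With every cell thinned to 5000 UMIs, Fzd10 was seen in 38.9% of dorsal midbrain cells (95% exact binomial interval 33.8 to 44.2) and in 1.11% of dorsal telencephalon cells (0.607 to 1.85). The unthinned shares were 62.7% and 2.49%, at median depths of 14128 and 12597 UMIs. Erythroid cells, which serve as background, gave 0 of 112 cells, which allows a share of up to 2.68%, at a median depth of 19536 UMIs. Intervals cover counting error only. Fzd3 and Fzd10 were found together in 24.1% of thinned dorsal midbrain cells and in 0.396% of those of dorsal telencephalon.

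Between roof plate and floor plate, the dorsal and ventral midlines, 2 of 9 members were called and 14.2% of genes. Fzd10 was higher dorsally by 3.11 ± 0.18 on the log2 scale (adjusted p = 1.67e-25, edgeR) and Fzd3 was lower (−0.69 ± 0.09, adjusted p = 4.70e-09). The ligands were divided as well, with 8 of 14 higher in roof plate and 2 lower. Wnt3a (5.09 ± 0.55), Wnt9a (4.05 ± 0.32) and Wnt4 (1.84 ± 0.24) were higher, as was Wnt1, which is a marker of that gate, and Wnt5a (−3.22 ± 0.27) and Wnt7a (−1.77 ± 0.38) were lower. Of 8 planar polarity genes 4 were lower, among them Celsr2 (−1.304 ± 0.14), and Prickle2 was higher (1.18 ± 0.34).

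From dorsal midbrain to isthmus Fzd10 fell by 0.83 ± 0.13 and Fzd2 by 0.79 ± 0.17 on the log2 scale, 2 of 9 members against 4.28% of genes. The dorsal midbrain gate requires a Pax3 or Pax7 UMI, which no other gate does. Isthmus cells with such a UMI held 84.3 to 126 CPM of Fzd10, overlapping dorsal midbrain (91.0 to 165), and those without 31.3 to 41.7 CPM. A difference between cells matched for this UMI was not tested. The Fzd10 difference was not called when gates were read from thinned cells (adjusted p = 0.0579, edgeR). Thalamus or pretectum differed from dorsal midbrain in 1 of 9 members, Fzd2, which was higher by 0.67 ± 0.14, with 3.8% of genes called. Fzd10 there differed by −0.29 ± 0.12 (adjusted p = 0.237, edgeR). The library labelled Apcdd1+/- replicate 1 was the lowest for Fzd10 in dorsal midbrain, hindbrain (19 cells), isthmus and thalamus. Replicate 2 of that label lay between the WT libraries in dorsal midbrain and close below them in hindbrain and isthmus. In thalamus cells with a Pax3 or Pax7 UMI the libraries of that label read 117 and 128 CPM, against 162 and 145 in WT. Cells without, from the same 4 libraries, read 63.0 and 72.9 against 88.7 and 74.2. Genotype was not tested within single regions. The share of genes whose WT libraries and those labelled Apcdd1+/- do not overlap was not counted there. Over all cells it was 20.1% of genes at or over 1 CPM.

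**Figure D2:**
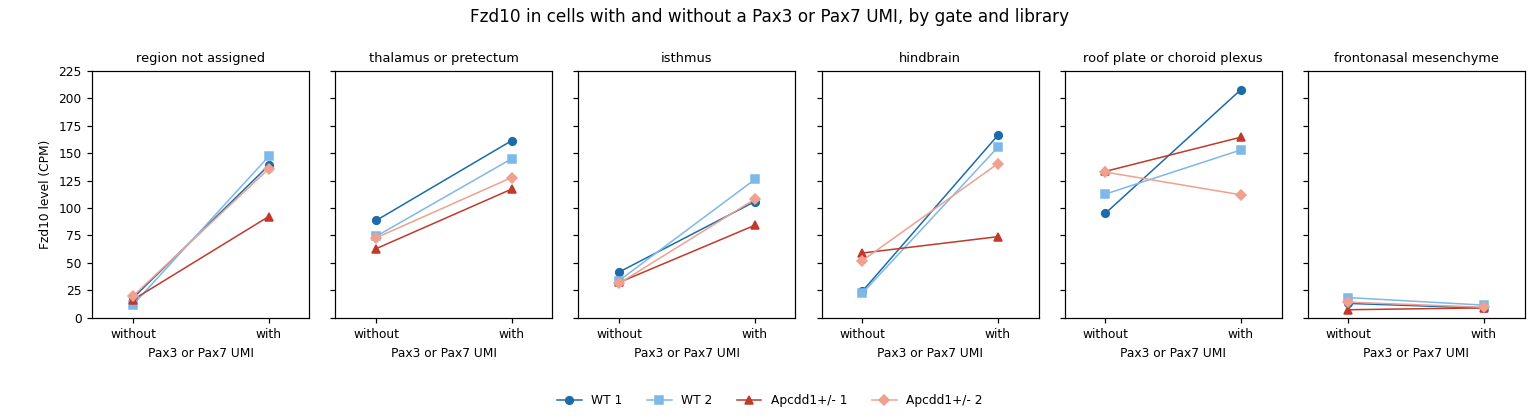
Fzd10 level in cells with and without a UMI of Pax3 or Pax7, for each library (points joined by library) within each gate. In isthmus, thalamus, hindbrain and unassigned progenitors, the last not split by region, all 4 libraries are higher with such a UMI. In frontonasal mesenchyme 1 of 4 is.

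Cells were also split by Pax3 and Pax7, transcription factors of the dorsal neural tube, within 8 gates or cell sets. In 4 of these Fzd10 was higher with the factors in every library. The split was chosen after levels had been seen. Among progenitors without an assigned region, 2325 cells with a UMI of either factor held 129 ± 25 CPM of Fzd10 and 7027 cells without held 16.5 ± 3.4 CPM, a ratio of 7.77. The ratio was 3.05 in isthmus (106 ± 17 and 34.8 ± 4.7 CPM) and 1.85 in thalamus or pretectum (138 ± 19 and 74.7 ± 10.6 CPM). Each held in 4 of 4 libraries, for which the exact sign-flip permutation test gives p = 0.125, the smallest that 4 libraries allow. The unassigned progenitors were not split by region, nor was pretectum separated from thalamus. In these 2 sets a difference with the factors and a different regional make-up cannot be told apart.

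Frontonasal mesenchyme, whose cells also carry these factors, did not share the Fzd10 difference, at 9.7 ± 1.2 CPM with and 13.2 ± 4.6 CPM without, higher in 1 of 4 libraries. Surface or oral epithelium was higher in 2 of 4 (ratio 0.69). Roof plate, the gate with the highest Fzd10 mean, was higher with the factors in 3 of 4 libraries (159 ± 39 and 119 ± 18 CPM), as was floor plate, where 1 library had 3 such cells. In the hindbrain gate Fzd7 ran the other way from Fzd10. Fzd10 measured 134 ± 41 CPM with Pax3 or Pax7 and 39.3 ± 18.9 CPM without, and Fzd7 26.3 ± 3.9 CPM with and 85.8 ± 49.2 CPM without. Fzd7 was lower with these factors in 4 of 4 libraries (exact sign-flip permutation p = 0.125), though 1 library had only 7 cells on one side. Fzd2 in the unassigned progenitors was likewise lower with them in 4 of 4 libraries, at 54.0 ± 5.9 against 82.7 ± 4.9 CPM. In isthmus Fzd2 went the other way in 4 of 4 libraries, at 23.3 ± 3.3 with and 20.2 ± 6.4 CPM without, and in hindbrain it stood at 78.4 CPM on both sides.

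Endothelium was the one vascular gate, and in it Fzd10 was found at 80.3, 68.3, 69.0 and 73.8 CPM. It rested on 218 UMIs in 94 of 219 cells, with 7 at most in 1 cell. After thinning, 26.3% of endothelial cells held a Fzd10 UMI (50 of 190, interval 20.2 to 33.2), against 2.68% in macrophages and 0 of 112 in erythroid cells. The difference from the mean of the other gates was 2.46 ± 0.18 (adjusted p = 1.30e-22, edgeR). WT replicate 2 and the library labelled Apcdd1+/- replicate 2 gave only 15 and 18 cells.

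RNA of the neural progenitor markers was present in the endothelium gate, below the level of neural regions. Its 10 neural progenitor markers, none at 0, summed to 259 CPM (238 to 297), where the gates of neural regions averaged 620 CPM or more, and its 12 endothelial markers to 4822 CPM. In the same cells Fzd2 was at 3.8 ± 2.4 CPM and Fzd3 at 22.3 ± 15.5 CPM, while neural progenitors held 75.3 ± 4.1 and 171 ± 16 CPM of these genes and 49.9 ± 9.0 CPM of Fzd10. Single regions differ from that progenitor average. Dorsal midbrain held 135 CPM of Fzd10 with 39.7 CPM of Fzd2, and dorsal telencephalon 2.8 CPM of Fzd10 with 112 CPM of Fzd2. Whether RNA of neural cells adds to Fzd10 in the endothelium gate was not tested. Fzd9 had no UMI in endothelium. Among 9 co-receptors and other Wnt receptors, Adgra2 (44.6 ± 11.8 CPM), which works with Reck in brain vessels, and Lrp5 (14.8 ± 6.1 CPM) had their highest gate mean in endothelium. Adgra2 in other mesenchyme, at 39.1 CPM, lay within the range of the endothelium libraries. The other 7 were highest elsewhere, Reck in other mesenchyme at 26.7 CPM.

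Fzd1, Fzd2 and Fzd7 form a subfamily, and mesenchymal gates were among the highest for each of them. Fzd2, known for its part in palate and limb growth, measured 170, 171, 122 and 124 CPM in pharyngeal arch mesenchyme (146 ± 28), 145 ± 20 in other mesenchyme and 122 ± 8 in frontonasal mesenchyme. Dorsal telencephalon followed at 112 ± 15 CPM, overlapping with frontonasal mesenchyme, and ventral telencephalon at 103 ± 4 and hypothalamus at 102 ± 7 CPM lay below every frontonasal library. Toward the midbrain Fzd2 declined, to 39.7 ± 7.6 CPM in dorsal midbrain and 27.3, 16.9, 24.03 and 19.6 CPM in isthmus. The isthmus libraries lie below all dorsal midbrain libraries, and only endothelium and the blood gates were lower.

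Hindbrain, in contrast, exceeded dorsal midbrain in Fzd2 by 0.91 ± 0.15 on the log2 scale (adjusted p = 2.73e-06, edgeR). Fzd7 showed the larger difference there, 2.37 ± 0.29 (adjusted p = 2.44e-10). These were 2 of 9 members, with 6.66% of genes called. Fzd7 in hindbrain read 42.8, 32.6, 69.1 and 37.1 CPM (45.4 ± 16.4), and every library exceeded every library of the next gate, pharyngeal arch mesenchyme at 28.3 ± 2.4 CPM. The dorsal midbrain gate requires a Pax3 or Pax7 UMI and the hindbrain gate does not. Hindbrain cells with such a UMI held 23.1 to 31.1 CPM of Fzd7, above dorsal midbrain (8.6 ± 4.0) but overlapping pharyngeal arch mesenchyme (25.3 to 31.1). Those without held 52.0 to 157 CPM, and cells matched for this UMI were not tested. Frontonasal mesenchyme at 26.2 ± 4.2 and floor plate at 21.99 ± 2.3 CPM were further high gates, and ventral telencephalon was the lowest neural region at 5.4 ± 1.8 CPM. The secreted Frizzled-related proteins, which bind Wnts outside the cell, were higher in hindbrain too, 3 of 3 tested, among them Sfrp2 (2.36 ± 0.23).

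Fzd1 was highest in other mesenchyme, with 22.01, 23.6, 28.2 and 16.6 CPM in that gate (22.6 ± 4.8). Against the mean of the other gates this was 1.71 ± 0.17 higher (adjusted p = 4.17e-15, edgeR), in a gate where 5 of 9 members and 40.4% of genes were called. The hem at 12.1 ± 4.0 and frontonasal mesenchyme at 11.8 ± 3.6 CPM came next and overlap. No member of 9 differed between arch and frontonasal mesenchyme, where 8.11% of genes were called. Neural crest or glia had less Fzd1 (−2.27 ± 0.56), Fzd2 (−1.17 ± 0.14) and Fzd4 (−3.75 ± 0.72) than mesenchyme, 3 of 10 members against 15.0% of genes. The Fzd4 value there rests on few UMIs, at 1.0 ± 1.2 CPM in the crest gate.

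Fzd3 was present in every neural gate. It is needed for axon tracts and takes part in planar polarity, as does Fzd6. Floor plate ranked first at 255.2, 341, 238 and 257 CPM (273 ± 46), followed by neuroblasts at 215 ± 21 and neurons at 204 ± 29 CPM, and neighbours in this order overlap. Mesenchyme held far less, 44.1 ± 7.3 CPM in the frontonasal and 37.6 ± 3.8 CPM in the other mesenchyme gate (−1.61 ± 0.10 against the mean of the other gates). Of thinned floor plate cells 66.0% held a Fzd3 UMI. Fzd3 overlaps Gm9086 on the opposite strand and Gm27263 on its own strand, and Fzd5 and Fzd6 each overlap a gene on the opposite strand. Reads shared with opposite-strand partners cannot be told apart unless counting used strand, on which the labels are silent. Strand would not separate Fzd3 from Gm27263.

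Fzd9, a relative of Fzd10 and Fzd4, was sparse and had its highest levels in neural gates. Isthmus had 8.0, 7.5, 5.4 and 8.7 CPM and thalamus or pretectum 6.9 ± 1.1 CPM. Mesenchymal gates had at most 0.52 CPM on average, and endothelium and erythroid cells had no UMI. Fzd6 gave 162 UMIs in all cells together, and its highest gate, surface or oral epithelium, had 2.8 ± 1.6 CPM from few cells (1.16% of thinned cells). No order among gates can be read for Fzd6 at this depth.

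**Figure D3:**
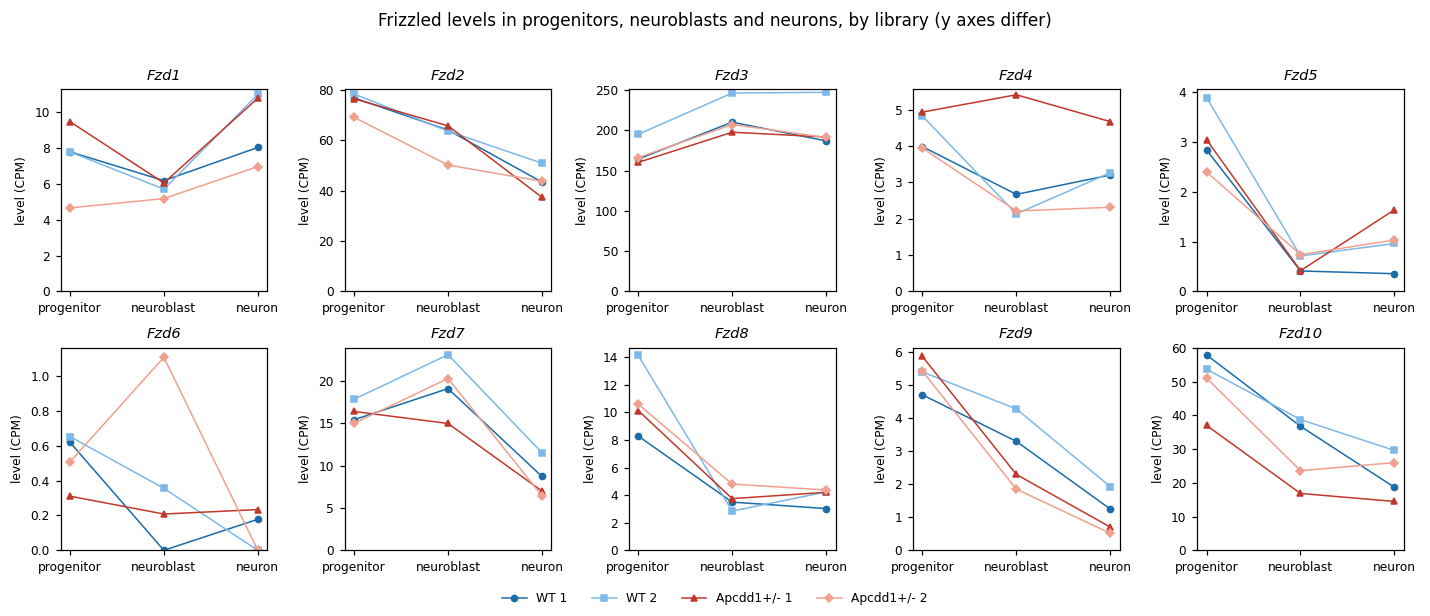
Level of each Frizzled gene (y axis, CPM, with its own scale for each gene) in progenitors, neuroblasts and neurons, as 1 line for each of the 4 libraries. Fzd3 is higher in neuroblasts and neurons than in progenitors in all 4 libraries, and Fzd2, Fzd5, Fzd8, Fzd9 and Fzd10 are lower.

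Along the neural lineage most members fell and Fzd3 rose. From progenitors (15346 cells) to neuroblasts (1444 cells), which are cells leaving the cycle, 6 of 10 members were called and 34.9% of genes. Fzd3 rose by 0.36 ± 0.06, and Fzd2 (−0.27 ± 0.08), Fzd5 (−2.48 ± 0.48), Fzd8 (−1.46 ± 0.21), Fzd9 (−0.85 ± 0.28) and Fzd10 (−0.77 ± 0.11) fell. The Fzd9 call was lost without the library labelled Apcdd1+/- replicate 1 (adjusted p = 0.147, edgeR) and without that labelled replicate 2 (0.0714).

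From progenitors to neurons (1563 cells), 8 of 10 members were called, but so were 67.8% of genes. Their median difference was −1.08, and that of all genes 0.04. Fzd3 read 187, 247, 192 and 191 CPM in neurons against 164, 195, 160.1 and 166 CPM in progenitors, higher in each library (0.23 ± 0.06, adjusted p = 5.59e-04, edgeR). Fzd9 fell by 2.25 ± 0.32, Fzd5 by 1.70 ± 0.38, Fzd8 by 1.48 ± 0.19, Fzd10 by 1.22 ± 0.11, Fzd7 by 0.94 ± 0.15 and Fzd2 by 0.80 ± 0.08 on the log2 scale. Fzd6 was lower too (−2.23 ± 0.89), a call lost without WT replicate 2 (adjusted p = 0.132, edgeR) and without the library labelled Apcdd1+/- replicate 2 (0.0803). Fzd1 and Fzd4 were not called. Neurons were not split by region, so a change with differentiation and a different regional make-up cannot be told apart.

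The lists of partner genes in neurons are to be read beside the 67.8% of all genes called there. Of 9 planar polarity genes tested 5 were higher and 1 lower, a share near that background. Celsr3 (4.59 ± 0.19), Prickle1 (2.47 ± 0.17) and Prickle2 (1.56 ± 0.14) were higher and Celsr1 (−1.34 ± 0.14) was lower. Dishevelled and its cytoplasmic partners were divided, 4 higher, such as Dvl3 (1.22 ± 0.08) and Daam1 (1.27 ± 0.08), and 4 lower, such as Axin2 (−0.74 ± 0.15). Ligands were lower for 10 of 15 and higher for 2, and the secreted Frizzled-related proteins Sfrp1, Sfrp2 and Frzb were all lower. Of 9 co-receptors 4 were lower and 2 higher, the latter being Ror2 (1.12 ± 0.11) and Reck (0.75 ± 0.12).

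The genes most alike to each member across the 22 gates, by Pearson's r of log2(mean CPM + 1) among 9724 genes, are a description, since gates share libraries and depth. For Fzd10 they were Pcp4l1 (r = 0.82), Apcdd1 (0.82) and Tsc22d2 (0.81), so the gene altered in this study was among the 3 nearest to Fzd10. Fzd3 was nearest to Zfp41 (0.98), Fzd2 to Gpc1 (0.95), a heparan sulphate proteoglycan, Fzd1 to Sox12 (0.93) and Fzd7 to Mmadhc (0.88). Fzd5 was nearest to Sowaha (0.82) and to Six6 (0.81) and Rax (0.79), eye field factors that are themselves gate markers. Fzd9 was nearest to Pdzph1 (0.88), Fam181a (0.88) and Wnt7a (0.87). Between members, Fzd1 and Fzd2 had the highest r (0.86) and Fzd4 and Fzd9 the lowest (−0.42).

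**Figure D4:**
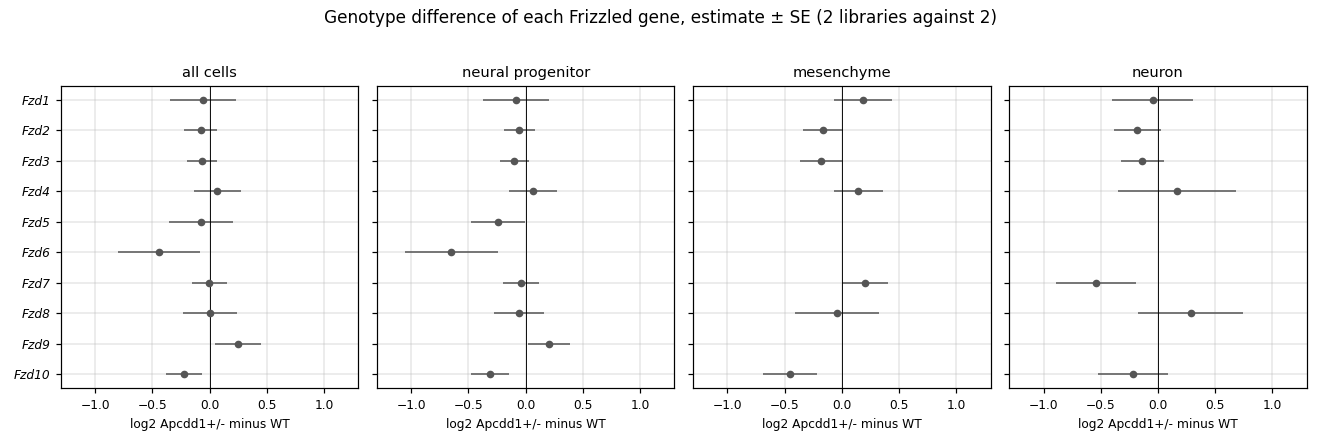
Log2 difference of the libraries labelled Apcdd1+/- from WT (x axis, points with SE bars, 2 libraries against 2) for each Frizzled gene tested, in all cells, neural progenitors, mesenchyme and neurons. The differences over all cells lie between −0.44 for Fzd6 and 0.25 for Fzd9, and none is called.

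Between genotypes, no Frizzled was called over all cells or in progenitors, mesenchyme or neurons. Over all cells Fzd10 read 40.2 and 39.0 CPM in WT and 28.4 and 37.8 CPM in the libraries labelled Apcdd1+/- (log2 difference −0.22, unadjusted p = 0.198, edgeR). Fzd2 read 83.6 and 81.8 CPM in WT and 80.9 and 70.8 CPM in the others. The groups of both genes do not overlap, but the distance between the closest libraries is small beside that between the libraries labelled Apcdd1+/-. Among the 9 members at or over 1 CPM, 3 had groups that do not overlap (Fzd2, Fzd9 and Fzd10), where 20.1% of all such genes did.

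The members' differences over all cells ran from −0.44 for Fzd6 to 0.25 for Fzd9, with a median of −0.06 beside 0.01 for all genes. Fzd10 had the lowest unadjusted p of the family in progenitors (0.0884) and in mesenchyme (0.0772, log2 difference −0.45), and Fzd7 in neurons (0.142, −0.54). Every adjusted p was 0.9996 or more. The edgeR test called 0 of 15966 genes over all cells (0.0%), 0 in progenitors, 0 in mesenchyme and 0 in neurons. At an unadjusted p under 0.05 it gave 188 (1.18%), 209 (1.42%), 186 (1.49%) and 258 genes (2.14%), none of them a Frizzled, and DESeq2 called 3 genes over all cells. Without the library labelled Apcdd1+/- replicate 1 edgeR called 109 genes over all cells and without that labelled replicate 2 it called 222, in neither case a Frizzled. No member's genotype difference differed between progenitors and mesenchyme or neurons in a test of the interaction, which called 1 of 14004 genes (0.00714%) and 0. Over all cells, the Fzd10 difference was within the spread between the 2 libraries of a group.

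Neuroblasts were tested for genotype after their levels had been seen. Fzd10 there read 36.8 and 38.8 CPM in WT and 16.9 and 23.6 CPM in the libraries labelled Apcdd1+/-, groups that do not overlap and lie further apart than the libraries within either. The log2 difference was −0.89 ± 0.23, with unadjusted p = 0.00212 and adjusted p = 0.9998 (edgeR). The test called 0 of 11253 genes (0.0%), gave 299 genes (2.66%) at an unadjusted p under 0.05, of which Fzd10 was the 1 Frizzled, and DESeq2 called 0. Without the library labelled Apcdd1+/- replicate 2 edgeR called Fzd10 (−1.13 ± 0.26, adjusted p = 0.00949), among 57 genes, and in none of the other alternatives was it called (adjusted p from 0.117 to 0.9999). Of 8 members at or over 1 CPM, 4 had groups that do not overlap (Fzd3, Fzd8, Fzd9 and Fzd10), where 29.1% of all such genes did.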

How the data were processed

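Heads were dissociated, sorted for live cells and captured with the DNBelab C kit, per the labels. Matrices deposited by the authors held whole-number UMI counts, not normalized, and came from PISA 0.12 per the file headers. The submitters' processing notes list Scanpy 1.9.1 and the build mm10 without saying what each was used for. No source used here names the aligner, the annotation release or the use of strand. One barcode list names 3994 of its matrix's 9735 cells, and cells were taken from the matrix. Genes not listed in a library counted as 0.

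Cells with at least 500 genes and under 10% mitochondrial counts were kept. No doublet caller was run, and 251 cells with markers of several classes, 203 with markers of several regions and 1318 of no class were left out of the gates. Counts were summed per gate and library and fitted with edgeR 4.0.16 (TMM, filter on low counts, quasi-likelihood test) in R 4.3.3. The first fit used 18 gates with at least 20 cells in each library. Because the erythroid gate is near 0 for Frizzleds, values of a gate against the others, and the hindbrain and crest pairs, come from a wider fit chosen after seeing the data, with 20 gates of at least 10 cells per library and no blood gates. Neuroblasts and neurons were fitted against all progenitors in a separate fit. Thinning to 5000 UMIs left out 3869 shallower cells and kept 20390. DESeq2 1.42.0, other scalings, filters, gates and each library left out were alternatives. The tests were tried on simulated data with known changes.

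The Frizzled genes, the pathway lists and the pairs were chosen with earlier results of these data known. Named are the 10 Frizzleds, the 3 genes most like each of those past the filter, among genes with a gate mean of at least 20 CPM (pseudocount 1), and list members past the threshold, of which examples are given. Exact intervals are Clopper-Pearson at 95%, and the limit for a count of 0 is 3 counts. Motifs were searched on both strands of RefSeq windows whose direction was checked against GENCODE transcripts. Levels were not compared between genes per length, and sums over the family are of UMIs as counted.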

Additional observations from a re-analysis of the deposited data

How the results depend on the processing

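The alternatives are described here for called Frizzled differences between gates, not for partner genes or uncalled pairs. None of these Frizzled differences named here changed sign in any alternative run for it. Of 35 called Frizzled differences between pairs of gates, 26 kept their call in all of theirs. The 9 others lost it in at least 1 alternative, and those lost to a single library stand beside the values. In addition, Fzd2 in neuroblasts lost its call without the library term (adjusted p = 0.0942, edgeR), as did Fzd3 in neurons (0.0524), and Fzd9 in neuroblasts with DESeq2 (0.0600). Frizzled calls numbered 25 to 34 in the pairs, and 71 to 103 against the other gates, where the fit with the erythroid gate gave 81. Reading gates from thinned cells moved Fzd10 in roof plate to 219 CPM, Fzd4 in the pigmented gate to 84.0 CPM and Fzd5 in neural retina to 47.1 CPM, and the cause was not tested.

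In the 4 planned cell sets no Frizzled was called between genotypes in any alternative, and in neuroblasts, added after seeing the data, Fzd10 was called without the library labelled Apcdd1+/- replicate 2. The number of all genes called did move. Over all cells it was 3 with no filter on low counts, 3 with DESeq2 and 0 to 222 with a library left out. In progenitors it was 10 with no filter and 0 to 132 with a library left out, and in mesenchyme 10 and 7 to 35. In neurons it was 0 to 80 with a library left out, and in neuroblasts 3 with no filter and 4 to 57 with a library left out. Leaving out the library labelled Apcdd1+/- replicate 2 gave the highest number in each of these cell sets, namely 222, 132, 35, 80 and 57. The lone library of a group is then assumed to vary like the other.

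Replicate numbers are shared between genotypes, but no label says that a number marks a litter or day. Deviations of same-numbered libraries correlated at 0.24 over all cells, 0.18 in progenitors, 0.256 in mesenchyme and 0.011 in neurons, over genes. With the replicate block the test called 5 genes over all cells, 4 in progenitors, 20 in mesenchyme and 5 in neuroblasts, none of them a Frizzled. Depth limits Fzd6, Fzd9 and the small retina, pigmented and endothelium gates most.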

Other observations

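Erythroid cells, otherwise near 0 for the family, held 13 Fzd5 UMIs in 12 of 128 cells, at 2.0 and 7.1 CPM in WT and 2.7 and 6.7 CPM in the libraries labelled Apcdd1+/-. Fzd10 and Fzd4 had no UMI in the same cells. After thinning to 5000 UMIs, 1 of 112 erythroid cells held a Fzd5 UMI, so this level lies near the limit of the depth.

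Summed over its 10 members, the family took 432 ± 23 CPM in hindbrain and 404 ± 22 CPM in roof plate, which overlap with floor plate at 400.2 ± 48.1 CPM, and 164 ± 7 CPM in endothelium. As counted, with no account of gene length, Fzd10 made up 44.5% of the Frizzled UMIs in endothelium, 36.2% in dorsal midbrain and 0.8% in ventral telencephalon. No Frizzled UMI was seen in 18.6% of thinned thalamus or pretectum cells and in 96.4% of erythroid cells.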
